A study of Mus musculus with 11 samples.

Results

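10 genes known from fat cells and from the lipid droplet were followed in fibrocartilage of the mandibular condyle, the jaw's side of the joint, in mice. They were Pparg, Adipoq, Cfd, Lep, Fabp4, Lpl, Cd36, Plin1, Plin4 and Cidec, 10 of the 23420 gene symbols in the count table, and all 10 were present in it. They were chosen by name, with no threshold, but a lower Plin4 level after estradiol in knockout tissue was already known from these same libraries. That difference is therefore given as a description, and no test below supports the choice of genes. Tissue was the whole dissected fibrocartilage of C57BL/6 females, ovariectomized at 6 weeks of age and killed at 7 weeks after 1 week of treatment, so every group had lost its ovaries. There were 4 groups. KO E2 (n = 3) carried the estrogen receptor alpha knockout (ERalphaKO) and a pellet of 17β-estradiol (0.01 mg, of a 60-day release type), and KO Plb (n = 3) carried the same knockout and placebo. WT E2 (n = 3) were wild type with the same estradiol pellet, and WT Plb (n = 2) were wild type with placebo. The labels do not name the deletion or say that each library is a separate animal, so p-values measure the spread between libraries, which may be technical in part.

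In a fat cell, PPAR gamma (Pparg) works with the retinoid X receptor as the master transcription factor of fat cell formation and switches on many of the other genes listed. Lipoprotein lipase (Lpl) frees fatty acids from circulating lipoproteins, CD36 takes them up, and FABP4 carries them inside the cell. Triglyceride is then stored in a droplet coated by perilipins (Plin1, Plin4) and enlarged by CIDEC, and the cell secretes adiponectin (Adipoq), adipsin (Cfd) and leptin (Lep). Several of these genes are also active elsewhere: Pparg and Cd36 in macrophages, Lpl and Plin4 in muscle, Cd36 and Fabp4 in endothelium. In bone marrow of the mouse, stromal cells that carry no large droplet are known to express Adipoq together with Lpl and Cxcl12.

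Start regions are shown for the 3 members with an edgeR adjusted p under 0.05 in any comparison, Plin4 only by the difference already known. That of Plin1, the perilipin of the fat cell droplet, is shown for contrast. Each of the 4 is the 250 bases before a RefSeq transcription start (GRCm38.p6), 5′ to 3′ on the gene's own strand. Capitals mark matches to the motifs searched.
Adipoq, chr16:23146286-23146535, plus strand: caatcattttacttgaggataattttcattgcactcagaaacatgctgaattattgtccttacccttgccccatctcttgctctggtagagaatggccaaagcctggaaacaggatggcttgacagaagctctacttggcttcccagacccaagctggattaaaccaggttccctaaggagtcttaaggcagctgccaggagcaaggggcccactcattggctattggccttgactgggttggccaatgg
Pparg, the third of its RefSeq start windows, chr6:115421816-115422065, plus strand: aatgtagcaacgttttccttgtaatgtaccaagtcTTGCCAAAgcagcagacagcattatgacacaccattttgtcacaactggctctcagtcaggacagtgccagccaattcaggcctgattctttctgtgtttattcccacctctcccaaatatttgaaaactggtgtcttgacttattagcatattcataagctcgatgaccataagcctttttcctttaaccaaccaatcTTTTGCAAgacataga
Plin4, chr17:56109783-56110032, minus strand: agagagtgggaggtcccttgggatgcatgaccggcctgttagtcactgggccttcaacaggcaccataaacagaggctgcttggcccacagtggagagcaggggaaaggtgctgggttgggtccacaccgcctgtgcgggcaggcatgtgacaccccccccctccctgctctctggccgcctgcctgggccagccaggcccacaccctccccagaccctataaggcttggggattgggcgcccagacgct
Plin1, chr7:79732777-79733026, minus strand: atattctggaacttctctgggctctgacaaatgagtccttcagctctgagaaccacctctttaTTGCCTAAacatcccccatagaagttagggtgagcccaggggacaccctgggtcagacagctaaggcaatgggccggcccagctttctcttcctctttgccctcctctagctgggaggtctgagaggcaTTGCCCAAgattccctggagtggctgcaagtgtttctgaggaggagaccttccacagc
Windows were found for 8 of the 10 members, 11 windows in all, with Fabp4 and Lpl named only. Both strands were searched, and overlapping motifs were each counted. The estrogen response element, GGTCA and TGACC with 3 bases between them, and the direct repeat read by PPAR and RXR, 2 copies of AGGTCA with 1 base between them, matched in 0 of the 11 windows, against 0.0639% and 0.0335% of the 32851 windows of all genes. The C/EBP motif TTGCNNAA matched in 4 of 11 windows (Plin1, Cidec, Lep and Pparg), against 9.56% of all windows. The half-site AGGTCA, which is part of the direct repeat, matched in 3 of 11 windows (2 of Pparg, 1 of Cd36), against 14.0%, and TATAAA in 1 of 11, against 12.4%. These are matches of letters and not sites shown to be bound. The bases after the start were found near the head of a GENCODE M21 transcript for the windows of Plin1, Plin4, Adipoq, Cfd and Pparg. For the windows of Cidec, Lep and Cd36 they were not. The C/EBP matches of Cidec and Lep and the half-site of Cd36 thus lie before less certain starts.

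The libraries held 15676303 to 25458364 counts in all. Levels are given as CPM, counts scaled to a common library total with TMM factors, and a floor of 3 counts per library equalled 0.118 to 0.204 CPM. Esr1, the gene of the deleted receptor, stood at 2.55 to 4.86 CPM over the KO libraries and at 6.43 to 13.4 CPM over the WT libraries, so the groups were apart but Esr1 counts remained in the knockout. Counts over a whole gene do not show which exons are missing. Cartilage marker genes (12, among them Col2a1 and Acan) summed to 7053 to 23481 CPM. Marker genes of skeletal muscle (15 genes) summed to 21.2 to 1419 CPM, highest in WT Plb 2, where the ribosomal precursor Rn45s also took 16.04% of counts, against 1.83% to 3.13% elsewhere. In such bulk tissue, fewer cells of a type and less RNA per cell cannot be told apart.

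The members ranged from well measured to nearly absent. Adipoq, Cfd, Fabp4, Pparg, Lpl and Cd36 had at least 3 counts in all 11 libraries and Plin4 in 9, whereas Lep reached that floor in 1 of 11, Plin1 in 4 and Cidec in 5. Of 20 other genes of mature fat cells, 14 passed the filter on low counts. Among these, named after their values were seen, Car3 stood at 260 to 382 CPM and Cdo1 at 80.6 to 219 CPM in the libraries, genes also known from muscle and from liver. Of the 6 that did not pass, Retn (resistin) had 13 counts in KO Plb 2 and 0 or 1 in every other library. Adrb3, the fat cell adrenergic receptor, had 7 counts in KO Plb 2 and 0 to 3 elsewhere, and Adig had 0 to 3 counts throughout. The leptin, resistin and perilipin 1 genes of the mature fat cell were thus at or near 0 in most libraries. Only 7 of the 10 members passed the filter on low counts and were tested, Lep, Plin1 and Cidec being left out.

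Per kilobase of exon (GENCODE M21 lengths) and averaged over the 4 groups, Lpl was the most abundant member at 19.8 CPM per kb. Fabp4 followed at 8.31, Adipoq at 3.89, Cd36 at 3.41, Cfd at 1.71 and Pparg at 1.30 CPM per kb. Plin4 stood at 0.192, Cidec at 0.150, Plin1 at 0.0461 and Lep at 0.0285 CPM per kb. Each gene's range over the 11 libraries overlapped that of the next in this order, for example 11.7 to 28.7 CPM per kb for Lpl and 2.48 to 22.7 for Fabp4.

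**Figure D1:**
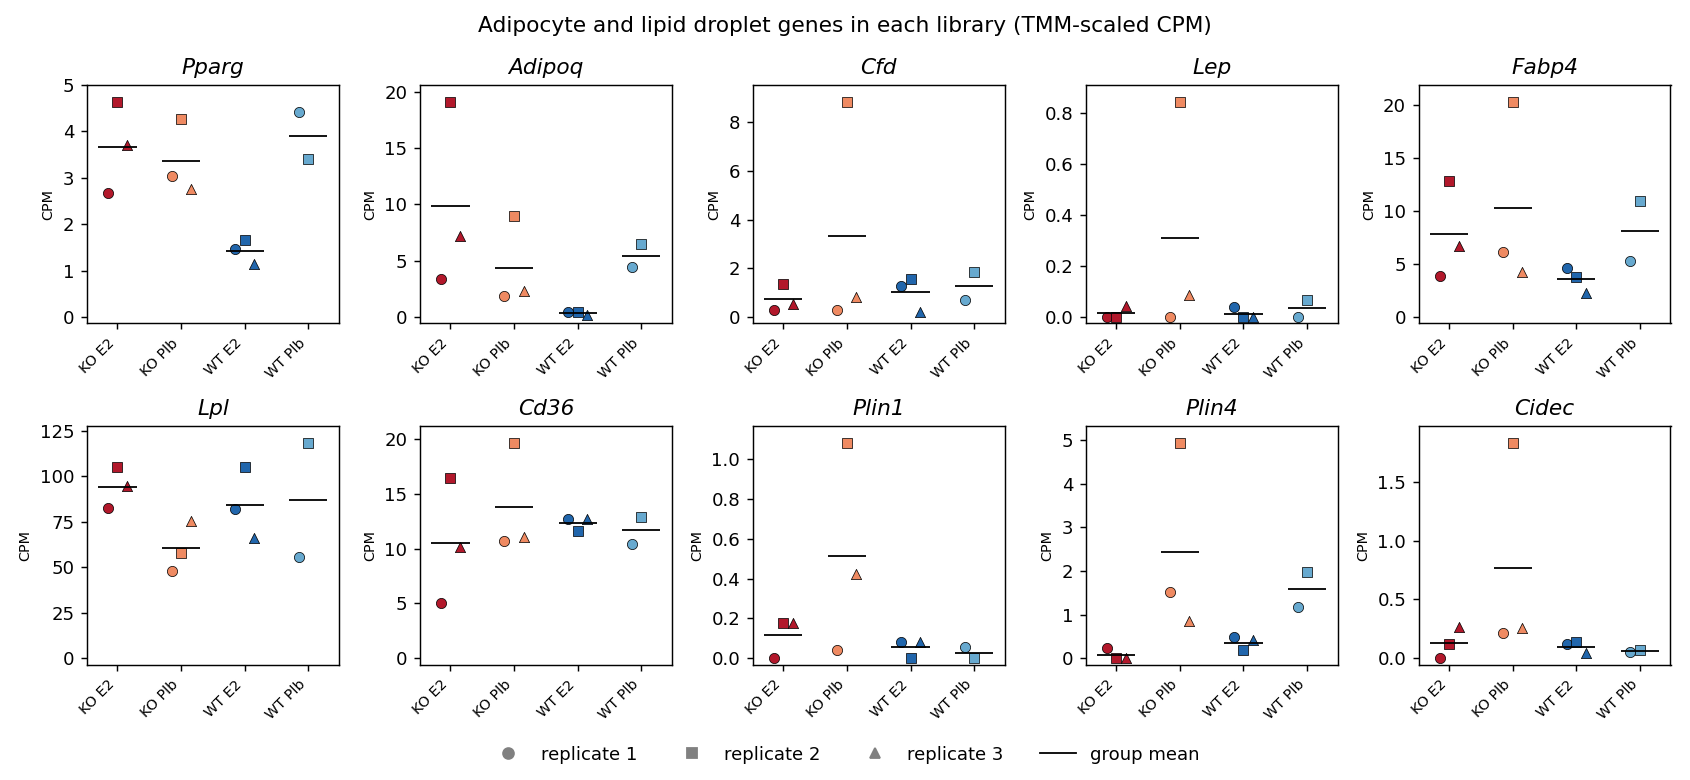
Level of each of the 10 members (CPM, linear axes) in every library, by group, with replicate number shown by marker shape and the group mean as a line. KO Plb 2 is the top point for Cfd, Lep, Fabp4, Cd36, Plin1, Plin4 and Cidec, while Pparg and Adipoq are lowest in the 3 WT E2 libraries.

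Library KO Plb 2 stood apart for these genes. It was the highest of the 11 libraries for 7 of the 10 members, whereas it was the highest for 9.39% of the 14531 genes tested. Those 7 include Lep, Plin1 and Cidec, which are not among the genes tested, so the 2 shares cover unlike sets. KO Plb 2 was also where the counts of some members were concentrated. It held 78.3% of all Lep counts (18 of 23), 58.2% of Cidec, 51.5% of Cfd and 50.0% of Plin1 counts. For Lep its level was 9.94 times that of the next library, for Cidec 6.82 times and for Cfd 4.80 times. For Lpl, in contrast, it held 6.79% of counts. Muscle markers in KO Plb 2 summed to 856 CPM, the second highest of the libraries. Differences that rest on this library are given with and without it.

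Pparg, the transcription factor, was lower after estradiol in wild-type tissue. It stood at 1.46, 1.66 and 1.15 CPM in the 3 WT E2 libraries, against 4.41 and 3.40 CPM in WT Plb. Both WT Plb libraries lay above all 3 WT E2 libraries. The log2 difference was -1.46 (SE 0.30, 2.75-fold, edgeR quasi-likelihood adjusted p = 0.0320 over all 14531 genes), and Pparg was the 1 member of 7 tested that passed there, as lower. Of all genes 1.55% passed, 0.654% as higher and 0.895% as lower. In knockout tissue Pparg stood at 2.68, 4.63 and 3.71 CPM in KO E2, against 3.04, 4.27 and 2.76 CPM in KO Plb. These ranges overlapped, and the log2 difference was 0.13 (SE 0.26, edgeR adjusted p = 0.860).

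Between genotypes, Pparg differed under estradiol. All KO E2 libraries lay above all WT E2 libraries, at 3.67 ± 0.98 against 1.42 ± 0.25 CPM (SD, n = 3 each), a log2 difference of 1.37 (SE 0.27, edgeR adjusted p = 0.00807). Among the members' calls, this one held in each of the 11 fits without 1 library and the 9 other alternatives, with adjusted p up to 0.0384. Under placebo the libraries overlapped, at 3.36 ± 0.80 CPM in KO Plb (n = 3) against 3.91 ± 0.72 in WT Plb (n = 2), with a log2 difference of -0.23 (SE 0.29, edgeR adjusted p = 0.806). The estradiol effect in WT minus that in KO was -1.59 on the log2 scale (SE 0.40) and did not pass (edgeR adjusted p = 0.0797), whereas it was -1.77 and passed without KO E2 1 (edgeR adjusted p = 0.0442). The WT estradiol call was lost without any 1 of WT Plb 1, WT E2 1, WT E2 2, WT E2 3 or KO Plb 1, at adjusted p of 0.143, 0.109, 0.0713, 0.0896 and 0.0506 (edgeR). Macrophage markers, 12 genes of cells that also express Pparg, summed to 639 to 779 CPM in KO E2, 719 to 720 CPM in KO Plb, 993 to 1154 CPM in WT E2 and 762 and 825 CPM in WT Plb. Of the 11 tested, 6 fell between KO E2 and WT E2 and 0 rose, where 4.2% of all genes fell and 7.27% rose. Their part in the Pparg difference was not tested.

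Adipoq, which encodes the hormone adiponectin, had the largest ratio of highest to lowest library among the members with counts in every library. It had 61, 322 and 161 counts in KO E2 (3.41, 19.1 and 7.19 CPM). It had 44, 191 and 55 counts in KO Plb (1.86, 8.96 and 2.34 CPM). It had 11, 10 and 4 counts in WT E2 (0.434, 0.460 and 0.165 CPM) and 82 and 95 in WT Plb (4.41 and 6.46 CPM). The 3 WT E2 libraries were thus the lowest of all 11, and KO Plb 1 was the next above them.

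In the test, Adipoq was higher in KO E2 than in WT E2 by 4.79 on the log2 scale (SE 0.94, edgeR adjusted p = 0.0142), at 9.90 ± 8.2 against 0.353 ± 0.16 CPM (SD, n = 3 each). The call was lost without WT E2 1 (adjusted p = 0.0583) and without WT E2 3 (adjusted p = 0.0668) in edgeR, and in limma-voom (adjusted p = 0.104). Adipoq and Pparg were the 2 of 7 tested members that rose in this comparison and 0 fell, where 11.5% of all genes passed, 7.27% as higher and 4.2% as lower. Against placebo in WT, the difference was -3.92 (SE 1.00) without passing in edgeR (adjusted p = 0.113), although the groups did not overlap. The authors' deposited table for the same comparison lists Adipoq at log2 -3.42 with an adjusted p of 1.82e-12. Without KO Plb 2, edgeR gave -3.93 and adjusted p = 0.0434. In KO the estradiol difference was 1.18 (SE 0.73, edgeR adjusted p = 0.474) with overlapping libraries, and 2.23 without KO Plb 2. The estradiol effect in WT minus that in KO was -5.10 (SE 1.25, edgeR adjusted p = 0.105), and -6.16 without KO Plb 2 (edgeR adjusted p = 0.0245).

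The other secreted factors were not lowest in WT E2 as a group. Cfd, the complement protease adipsin, stood at 0.279, 1.37 and 0.536 CPM in KO E2 and 0.296, 8.82 and 0.807 in KO Plb. It stood at 1.26, 1.56 and 0.206 CPM in WT E2 and at 0.700 and 1.84 CPM in WT Plb. All groups overlapped, with KO Plb 2 far above the rest, and no difference passed (edgeR adjusted p from 0.428 to 0.962). In KO the estradiol difference of Cfd was -2.19 (SE 1.24) with KO Plb 2 and 0.38 without it. Lep, the satiety hormone leptin, had 0, 0 and 1 counts in KO E2, 0, 18 and 2 in KO Plb, 1, 0 and 0 in WT E2 and 0 and 1 in WT Plb. The ratio of KO E2 to KO Plb counts was 0.0600 (exact 95% counting interval 0.00145 to 0.375), and 18 of the 20 KO Plb counts came from KO Plb 2. Without that library the ratio was 0.413 (0.00700 to 7.93).

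Of the genes of fatty acid handling, Fabp4 was, like Adipoq, lowest on average in WT E2. The fatty acid carrier stood at 3.91, 12.8 and 6.75 CPM in KO E2 and 6.17, 20.3 and 4.29 in KO Plb. It stood at 4.66, 3.73 and 2.23 CPM in WT E2, below both WT Plb libraries (5.33 and 11.02 CPM). None of its differences passed in edgeR: the log2 difference was -1.20 for estradiol in WT (SE 0.76, adjusted p = 0.560) and 1.14 for KO E2 against WT E2 (SE 0.69, adjusted p = 0.331). The authors' deposited table lists KO E2 over WT E2 at log2 1.06 with an adjusted p of 0.0302, while DESeq2 as run here did not call Fabp4 there. In KO, the estradiol difference of Fabp4 was -0.39 (SE 0.66) and turned to 0.58 without KO Plb 2.

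Lpl, the lipase, had the smallest ratio of highest to lowest library among the members, at 48.1 to 118 CPM. It stood at 82.5, 105 and 94.7 CPM in KO E2, against 48.1, 58.0 and 75.1 CPM in KO Plb, groups that did not overlap. The log2 difference of 0.64 (SE 0.29) did not pass in edgeR (adjusted p = 0.310), while the authors' deposited table lists it at 0.63 with an adjusted p of 0.00201. DESeq2 as run here did not call Lpl there either. In WT, Lpl stood at 81.8, 105 and 66.1 CPM after estradiol, inside the span of 55.6 and 118 CPM of the WT Plb libraries. The log2 difference was -0.04 (SE 0.32, edgeR adjusted p = 0.979), and 0.60 without WT Plb 2.

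Cd36, the fatty acid transporter, stood at 5.02, 16.4 and 10.1 CPM in KO E2 and 10.7, 19.6 and 11.1 in KO Plb. It stood at 12.7, 11.6 and 12.7 CPM in WT E2 and at 10.4 and 12.9 CPM in WT Plb. The WT libraries lay close together and the KO libraries further apart, with overlap in every comparison. No difference passed (log2 from -0.39 to 0.48, edgeR adjusted p from 0.676 to 0.963), and the estradiol difference in KO of -0.39 was -0.05 without KO Plb 2.

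Among the lipid droplet proteins, Plin4, which coats small nascent droplets and is also active in muscle, had lower values after estradiol in both genotypes. It had 4, 0 and 0 counts in KO E2 (0.223, 0 and 0 CPM), against 36, 105 and 20 in KO Plb (1.52, 4.92 and 0.849 CPM). In WT it stood at 0.474, 0.184 and 0.412 CPM after estradiol, against 1.18 and 1.97 CPM under placebo. Neither pair of groups overlapped, and the estradiol libraries of each genotype were the low ones. The fall in KO (log2 -4.98, SE 0.99) was already known when the list was drawn up and is given as a description. Plin4 was the 1 of 7 tested members past the threshold there, where 2.73% of all genes were, 2.36% as higher and 0.365% as lower (396 genes, or 629 with the replicate number as a block). The authors' deposited table lists Plin4 in KO at log2 -1.44 with an adjusted p of 0.0926. That size lies outside the -5.1 to -3.96 of the alternatives here other than leaving out 1 library, DESeq2 among them. It may therefore not be the same measure as the edgeR difference. The size of the fitted difference rests on 4 counts in KO E2 1, and it was -8.69 without that library. Without KO Plb 2 the KO difference was -3.96, and it was no longer past the threshold without any 1 of KO Plb 1, KO Plb 2, KO E2 2 or KO E2 3 (-5.23 to -3.96). In WT the log2 difference of -2.10 (SE 0.84) did not pass (edgeR adjusted p = 0.276).

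The estradiol effects on Plin4 in the 2 genotypes were not told apart by the test of their difference (log2 2.88, SE 1.39, edgeR adjusted p = 0.474). Skeletal muscle markers were also low in KO E2, with a median log2 difference of -5.69 over the 14 tested for estradiol in KO. Of these, 12 had an unadjusted p under 0.05 in edgeR and DESeq2 called 11, while edgeR and limma-voom called 0. Of all 14531 genes, 2392 had such a p, and DESeq2 called 937 genes. The 15 muscle genes summed to 21.2, 21.4 and 22.8 CPM in KO E2, against 588, 856 and 106 CPM in KO Plb. In WT they summed to 299, 68.9 and 46.2 CPM after estradiol, against 50.2 and 1419 CPM under placebo. Under placebo in WT, Plin4 stood at 1.18 CPM beside a muscle sum of 50.2 CPM (WT Plb 1) and at 1.97 CPM beside 1419 CPM (WT Plb 2). In KO Plb 1, 2 and 3 it stood at 1.52, 4.92 and 0.849 CPM, beside 588, 856 and 106 CPM. The part of muscle RNA in the Plin4 difference was not tested.

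Plin1, the perilipin of the large fat cell droplet, had 0, 3 and 4 counts in KO E2 and 1, 23 and 10 in KO Plb. It had 2, 0 and 2 counts in WT E2 and 1 and 0 in WT Plb. Cidec, the droplet fusion protein, had 0, 2 and 6 counts in KO E2, 5, 39 and 6 in KO Plb, 3, 3 and 1 in WT E2 and 1 and 1 in WT Plb. The KO Plb libraries held most of the counts of both genes, KO Plb 2 above all. Between KO Plb and WT Plb the ratio of counts was 16.5 for Plin1 (exact 95% counting interval 2.77 to 671) and 12.1 for Cidec (3.19 to 103), intervals that cover counting error only. Without KO Plb 2 the ratio was 7.75 for Plin1 (1.13 to 334) and 3.88 for Cidec (0.846 to 36.0). In a fit without the low-count filter neither gene passed in any of the 5 comparisons (edgeR adjusted p from 0.253 to 0.946).

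**Figure D2:**
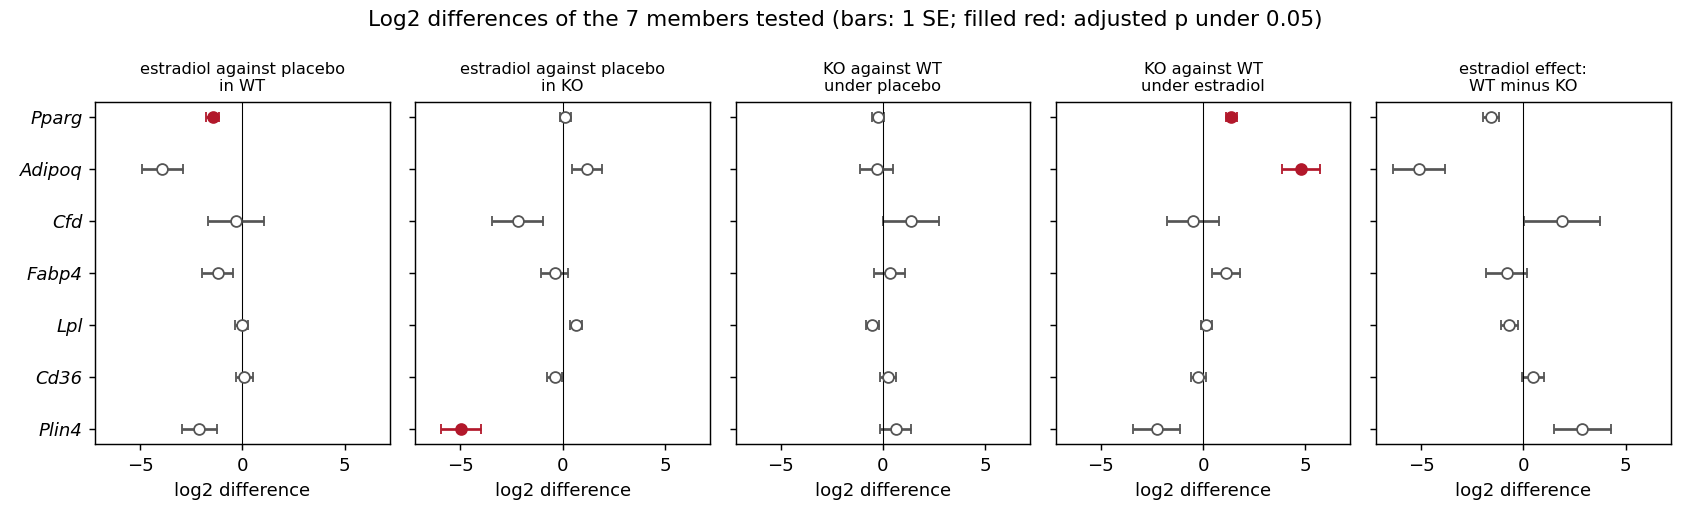
Log2 differences with 1 SE for the 7 members tested in each of the 5 comparisons, from the edgeR fit over all 11 libraries. Filled red points passed an adjusted p under 0.05. For estradiol they were Pparg in WT (-1.46) and Plin4 in KO (-4.98), the latter already known and shown as a description. For KO against WT under estradiol they were Pparg (1.37) and Adipoq (4.79).

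Over the list, the 7 members tested had a median log2 difference of -1.20 for estradiol in WT, -0.39 for estradiol in KO, 0.25 for KO against WT under placebo and 0.16 for KO against WT under estradiol, with a median of 0 over all genes tested in each. Groups of libraries did not overlap for 4 of the 10 members for estradiol in WT (Pparg, Adipoq, Fabp4 and Plin4, all lower), where 27.0% of all genes tested did not overlap. They did not overlap for 2 of 10 in KO (Plin4 lower, the difference already known, and Lpl higher), against 24.8% of all genes. Between genotypes they did not overlap for 1 of 10 under placebo (Cidec, higher in KO), against 27.0% of all genes, and for 2 of 10 under estradiol (Pparg and Adipoq, both higher in KO), against 34.6%. These shares lie on both sides of those of all genes. Lep, Plin1 and Cidec are among the 10 members but not among the genes tested. Under placebo, 0 of 7 tested members passed between KO and WT in edgeR, where 0.00688% of all genes (1 gene) passed. In DESeq2 0 members passed, where 32 genes did. In edgeR 0 had an unadjusted p under 0.05, where 1338 of the 14531 genes did. Esr1, the gene of the deleted receptor, did not pass there either (log2 -1.39, SE 0.30, edgeR adjusted p = 0.468), although its groups did not overlap. The absence of calls under placebo therefore does not show that the genotypes were alike. For the estradiol effect in WT minus that in KO, 0 of 7 passed in edgeR, where 1.15% of all genes did. There, 2 members had an unadjusted p under 0.05 in edgeR, as did 1683 of the 14531 genes. DESeq2 called the 2, Adipoq and Pparg, among 545 genes in all.

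Other genes of fat storage passed mostly between genotypes under estradiol, where 11.5% of all genes did. Of 14 other mature fat cell genes tested (20 listed), 2 fell and 0 rose in KO E2 against WT E2. These were Rbp4, the retinol carrier (43.8 ± 6.9 CPM in KO E2 against 68.0 ± 7.9 in WT E2, edgeR adjusted p = 0.0218), and Cidea, a droplet protein of brown fat with 0 counts in all 3 KO E2 libraries and 13, 7 and 18 in WT E2. Set against 3 counts per KO E2 library, Cidea was at least 3.29-fold lower in KO E2. Of 14 other droplet coat and turnover genes, 1 rose and 1 fell in that comparison: G0s2, the inhibitor of the main triglyceride lipase (3.68 ± 0.86 against 1.78 ± 0.14 CPM, edgeR adjusted p = 0.0360), and Bscl2, the droplet assembly protein seipin (54.9 ± 1.4 against 68.1 ± 6.2 CPM, edgeR adjusted p = 0.0330). Of 17 genes of fatty acid and triglyceride synthesis, Gpam, which adds the first fatty acid to glycerol phosphate, alone rose (23.2 ± 2.0 against 12.8 ± 2.2 CPM, edgeR adjusted p = 0.00353). Of 17 adipogenic regulators 1 passed. Ebf1, an early factor of both fat and B cells, rose in KO E2 against WT E2 (17.3 ± 3.0 against 7.24 ± 1.1 CPM, edgeR adjusted p = 0.0106). In these 4 sets edgeR called 0 genes for estradiol in WT, for estradiol in KO or under placebo. Over the 3 comparisons, between 0 and 4 genes a set had an unadjusted p under 0.05 in edgeR, and DESeq2 called 0 or 1 a set. Of all 14531 genes, 2038, 2392 and 1338 had such a p, in that order. DESeq2 called 643, 937 and 32 genes.

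Some lipase partners and fatty acid carriers were lower in KO E2 than in WT E2. Of all genes 4.2% fell and 7.27% rose in that comparison, and the list's median log2 difference was -0.32. Of its 12 genes tested, 4 fell and 0 rose. They were Vldlr (-1.18, edgeR adjusted p = 0.000708), the fatty acid transporter Slc27a1 (-0.63, adjusted p = 0.00129), the apolipoprotein Apoe (-0.66, adjusted p = 0.0151) and the lipase maturation factor Lmf1 (-0.42, adjusted p = 0.0271). Vldlr, a receptor that binds triglyceride-rich lipoproteins, was also the 1 member of the set that rose with estradiol in WT. It stood at 303 ± 33 CPM in WT E2 (n = 3) against 149 ± 42 CPM in WT Plb (n = 2), a log2 difference of 1.02 (SE 0.18, edgeR adjusted p = 0.0134). Its estradiol effect in WT exceeded that in KO by 1.30 (SE 0.23, edgeR adjusted p = 0.0215). The endothelial markers, whose vessels hold lipase at their wall, summed to 425 to 470 CPM in KO E2 and 548 to 598 CPM in WT E2, and 5 of 12 fell in that comparison. Their part in the lower carriers was not tested. Of 7 brown fat genes tested, edgeR called Cidea alone in any comparison. DESeq2 called 2 of them for estradiol in KO, where it called 937 genes in all, and 2 between genotypes under estradiol. Their median was -2.16 for estradiol in KO, in the libraries where muscle markers were also low. Of 7 adipokine receptors, 1 rose and 1 fell between genotypes under estradiol. Under estradiol Lepr, the leptin receptor, was higher in KO (77.3 ± 7.1 against 53.2 ± 3.0 CPM, edgeR adjusted p = 0.00511) and C3ar1 lower (8.95 ± 2.4 against 18.4 ± 1.9 CPM, edgeR adjusted p = 0.00404).

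Counts from bulk tissue do not show which cells held Adipoq. As a description, 12 genes known from the Adipoq-expressing stroma of bone marrow were followed, all of them tested. For estradiol in WT 1 rose and 2 fell, where 0.654% of all genes rose and 0.895% fell. Between KO E2 and WT E2 6 rose and 2 fell, where 7.27% of all genes rose and 4.2% fell. Those that rose were Cxcl12, Ebf3, Vcam1, Lepr (also counted among the adipokine receptors), Hp and Igfbp4, and Agt and Foxc1 fell. Foxc1 stood at 64.0 ± 5.0 CPM in KO E2 against 85.2 ± 5.9 in WT E2 (edgeR adjusted p = 0.00612). Hp stood at 46.7 ± 29 against 5.77 ± 1.1 CPM (edgeR adjusted p = 0.0126). The neutrophil genes below were also highest in KO E2, and their part in the Hp difference was not tested. For estradiol in KO edgeR called 0, with 4 at an unadjusted p under 0.05 and 3 called by DESeq2. Of all 14531 genes, 2392 had such a p there, and DESeq2 called 937 genes. Cxcl12, the chemokine that holds blood stem cells in the marrow, stood at 226, 432 and 318 CPM in KO E2 and 197, 253 and 188 CPM in KO Plb. It stood at 54.7, 56.2 and 42.8 CPM in WT E2 and at 235 and 216 CPM in WT Plb. The WT E2 libraries were the 3 lowest, as they were for Adipoq. Its difference between KO E2 and WT E2 was 2.67 (SE 0.22, edgeR adjusted p = 8.06e-05). Ebf3, a transcription factor of the same stroma, fell with estradiol in WT by 1.45 on the log2 scale (SE 0.20, edgeR adjusted p = 0.00247). It was higher in KO E2 than in WT E2 by 1.39 (SE 0.18, edgeR adjusted p = 0.000580). Agt, the angiotensin precursor, moved the other way, at 1.04 for estradiol in WT (SE 0.14, edgeR adjusted p = 0.00286) and -0.97 between KO E2 and WT E2 (SE 0.13, edgeR adjusted p = 0.000560).

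The genes whose pattern over the 11 libraries was most like that of Adipoq were sought outside the list among 12567 genes with a mean of at least 1 CPM, members and predicted genes left out, by Pearson r of log2 CPM, as a description. Cxcl12 came first of these at r = 0.966. Gapt, Tomm34, Flt3, Plac8, Rgs18, Mcpt4, Gria3 and Prg3 followed, with r from 0.963 to 0.946. Flt3 is a receptor of blood progenitors, and Mcpt4 and Prg3 are products of mast cells and eosinophils. Tomm34 varied little in level, at 32.3 to 36.3 CPM in KO E2 against 28.9 to 30.4 CPM in WT E2. Of the first 10 genes by Pearson r, 4 were again among the first 10 by Spearman rho, and 5 were without KO Plb 1. Among the members, r with Adipoq was 0.956 for Pparg, which lies between the values of Flt3 (0.960) and Plac8 (0.955), 0.813 for Fabp4, 0.383 for Cfd, 0.160 for Lpl, 0.147 for Cd36 and -0.013 for Plin4. The 11 points share groups and are not independent.

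**Figure D3:**
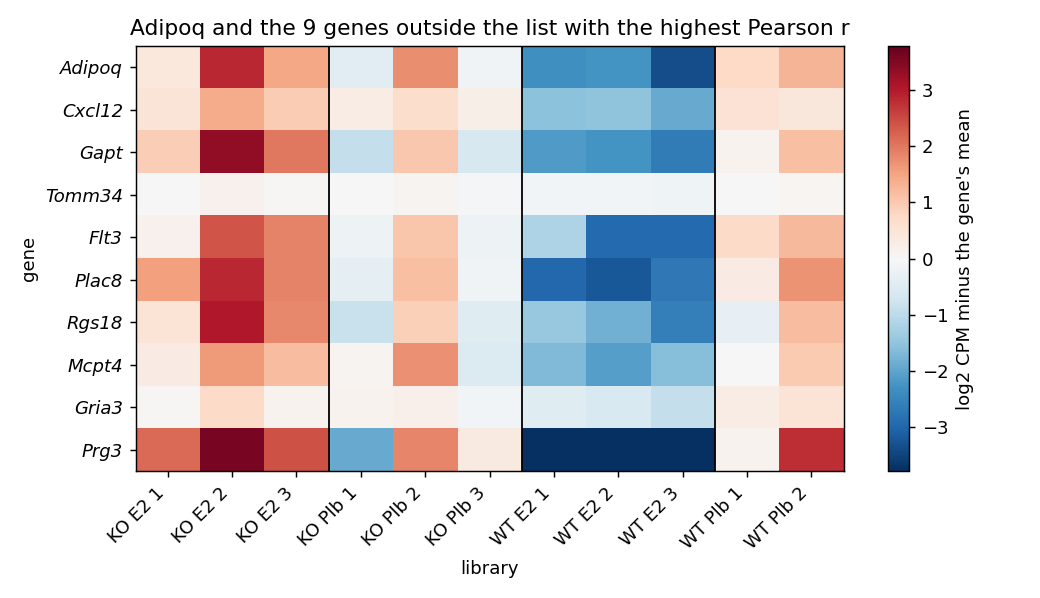
Log2 CPM of Adipoq and the 9 genes outside the list most like it (members and predicted genes left out), each minus its own mean over the 11 libraries, with libraries in columns by group. Each row is lowest within the 3 WT E2 columns, and the deepest red of the Adipoq row is KO E2 2, which stood at 19.1 CPM against 0.165 to 0.460 CPM in WT E2.

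Blood cell markers also differed between these libraries. Neutrophil genes (12) summed to 1292, 4682 and 1617 CPM in KO E2 and 1.48, 753 and 169 CPM in KO Plb. They summed to 8.49, 44.4 and 10.6 CPM in WT E2 and to 217 and 485 CPM in WT Plb. KO Plb 1 had 1.48 CPM of neutrophil genes and 232 CPM of B lineage genes, beside 1.86 CPM of Adipoq and 197 CPM of Cxcl12. Of the 12 neutrophil genes, 8 rose and 0 fell between KO E2 and WT E2 in edgeR, where 7.27% of all genes rose and 4.2% fell. DESeq2 called 12 of them there and limma-voom 0. B lineage genes (12, Ebf1 among them) summed to 219 to 382 CPM in KO E2 and 103 to 232 CPM in KO Plb. They summed to 19.2 to 22.9 CPM in WT E2 and to 64.3 and 77.3 CPM in WT Plb. All 12 rose between KO E2 and WT E2 in edgeR, and limma-voom called 10. The part of marrow or blood carried into the dissected tissue in the Adipoq and Pparg differences was not tested.

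**Figure D4:**
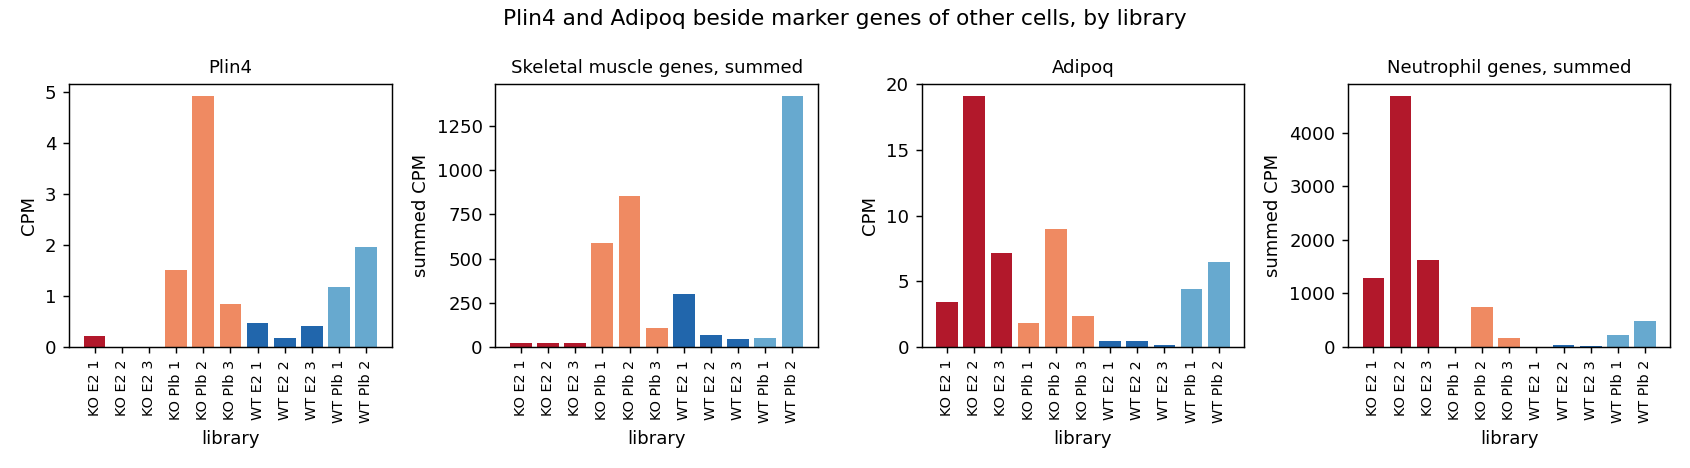
Plin4 and Adipoq (CPM) beside the summed CPM of skeletal muscle and neutrophil marker genes, 1 bar per library on linear axes from 0, coloured by group. Muscle markers are 21.2 to 22.8 CPM in the KO E2 libraries, where Plin4 is 0 to 0.223 CPM, and neutrophil markers and Adipoq both peak in KO E2 2.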

How the data were processed

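RNA was enriched for poly-A and sequenced from TruSeq libraries per the labels' protocols, and bcl2fastq 2.17, TopHat and the mouse build mm9 are named in the submitters' processing notes. For the counting program, its annotation and any use of strand, the sources used here give nothing. The authors deposited raw whole-number counts for 23420 symbols in 11 samples, and 0 columns of per-sample values were left unmapped. The authors' log2 fold changes and adjusted p-values come from 4 of their deposited comparison tables, whose columns have the layout of DESeq2 output (baseMean, lfcSE) per the file headers.

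With R 4.3.3, edgeR 4.0.16 filtered genes (filterByExpr, minimum count 10, minimum total 15), which kept 14531 genes, scaled totals by TMM, and fitted a robust quasi-likelihood model to the 4 groups over all 11 samples (7 residual degrees of freedom). Adjusted p-values are Benjamini-Hochberg over the 14531 genes of a comparison, and a gene was called under 0.05. SE is the absolute log2 difference divided by the square root of F. The fit was tested on simulated counts with known changes. Alternatives were RLE scaling, no filter, DESeq2 1.42.0, limma-voom (limma 3.58.1), fits of 2 groups, a replicate block, no Rn45s, an adjusted p under 0.1 and leaving out each library; leaving out WT Plb 2 and KO Plb 2 together, and ratios of low counts without KO Plb 2, were added after seeing the data. Intervals and floors cover counting error only.

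The members and lists were chosen with earlier results of these data known. Named were all members, up to 4 called genes of each pathway list and comparison, the 10 genes most like Adipoq by Pearson r of log2 CPM (prior count 2; mean CPM at least 1; members and predicted genes left out), and Esr1; 1 of these 10 is not reported here. For the marrow stroma between KO E2 and WT E2 all called genes were named. Older symbols were matched through RefSeq synonyms, and 1 listed marker, Ahsp, was not matched. Start regions are from RefSeq (GRCm38.p6), a build other than mm9, so no other coordinates are given.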

Additional observations from a re-analysis of the deposited data

How the results depend on the processing

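Over the log2 differences of the 7 tested members in 5 comparisons, 637 values under alternatives kept their direction and their side of the threshold, 18 lost a call, 10 gained one and 27 reversed, none of the reversed being a call. Of the 4 calls among the members, that of Plin4 in KO was already known and is a description. The call of Pparg between KO E2 and WT E2 held in every alternative run. The calls of Adipoq between KO E2 and WT E2, Pparg in WT and Plin4 in KO were each lost in at least 1. The cause was not tested.

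DESeq2 called 643 genes and 2 members (Adipoq and Pparg) for estradiol in WT, 937 genes in KO, 545 genes and 2 members for the effect in WT minus that in KO, and 32 genes between genotypes under placebo. Limma-voom called 141 genes and 0 members in WT, 0 members in KO, 69 genes for the difference of effects, and 1 member (Pparg) between genotypes under estradiol. Fits of only the 2 groups compared, not run for the difference of effects, gave 226 genes and 0 members in KO. In WT such a fit called 1 member, but Adipoq (adjusted p = 0.00319) in place of Pparg (adjusted p = 0.0653). An adjusted p under 0.1 gave 448 genes in WT, 714 in KO, 395 genes and 1 member for the difference of effects, and 2512 genes between genotypes under estradiol. Without WT Plb 2 and KO Plb 2 together, chosen after seeing the data, 0 members were called in WT, 157 genes and 0 members in KO, and 72 genes for the difference of effects.

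The labels give the groups the same replicate numbers. Same-numbered libraries deviated together (r above 0.1) in only 7 of 15 pairs (r from -0.203 to 0.386). The numbers were therefore not taken to pair libraries over the 4 groups. Differently numbered pairs were not compared, so a pairing is not excluded. The 3 pairs of KO E2 with KO Plb were all above 0.1 (0.142 to 0.386). With the replicate block, 2 members were called in WT (Adipoq at adjusted p = 0.00993 and Pparg), 629 genes in KO, 301 genes and 1 member (Adipoq, adjusted p = 0.00501) for the difference of effects, and 17 genes under placebo. Under the block, the WT estradiol difference of Cfd was 0.21 and that of Lpl 0.01.

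Leaving out each library in turn gave 113 to 285 genes and 0 to 2 members called in WT, 105 to 505 genes and 0 to 1 members in KO, 68 to 270 genes and 0 to 1 members for the difference of effects, 1 to 50 genes and 0 members under placebo, and 867 to 1850 genes and 1 to 2 members under estradiol. Of the 10 genes most like Adipoq, 5 to 10 remained, and 4 remained by Spearman rho. Reversed differences without 1 library ranged in WT from -0.87 to 0.52 for Cfd, -0.49 to 0.60 for Lpl and -0.07 to 0.25 for Cd36. In KO they ranged from -2.95 to 0.38 for Cfd, -0.92 to 0.58 for Fabp4 and -0.05 to 0.34 for Pparg, and for the difference of effects from -0.69 to 2.71 for Cfd. Under placebo they ranged from -0.40 to 1.03 for Plin4, -1.37 to 0.05 for Adipoq, -1.17 to 2.22 for Cfd, -0.64 to 0.94 for Fabp4, -0.97 to 0.12 for Lpl and -0.09 to 0.41 for Cd36, and under estradiol from -0.68 to 0.10 for Cd36. The WT difference of Lpl was 0.04 in limma-voom. Without WT Plb 2 and KO Plb 2 together, Cfd (0.52) and Lpl (0.60) reversed in WT, Cfd (0.38) and Fabp4 (0.58) in KO, and Cfd (-0.34), Fabp4 (-0.02) and Lpl (0.15) under placebo.

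With 2 WT Plb libraries, leaving out 1 leaves a lone library that is assumed to vary like the other groups. Lep, Plin1 and Cidec had 23, 46 and 67 counts over all libraries, too few for the filter, and a difference in them below the size of their counting intervals was not detectable at this depth.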
